A study of Homo sapiens with 16 samples.

Results

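NF-κB response and inflammatory genes were followed in human leukemia cells given the Musashi inhibitor Ro 08-2750 (Ro). The 10 genes were NFKB1, NFKB2, RELB, NFKBIA, NFKBIZ, TNFAIP3, BIRC3, ICAM1, TNF and IL1B, chosen by name, and each had a row of its own among the 25221 genes of the count table. RNA came from MOLM13, an acute myeloid leukemia line of monocytic type (passages 8 to 12), and from K562, derived from the blast phase of chronic myeloid leukemia and with erythroid features (passages 12 to 18). Cells stood in RPMI with 10% serum at 0.5M cells per mL and received 20 μM Ro for 4 h, diluted from a 20 mM stock, or the vehicle alone, so that every culture held 0.1% DMSO. Each line gave 4 numbered pairs of a DMSO and a Ro library, 16 libraries of 3′ mRNA ends in all. Each disease was represented by a single established line, and a difference between the lines cannot be told apart from a difference between the diseases.

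NF-κB is a family of dimeric transcription factors that stay in the cytoplasm while bound to IκB proteins. Signals from TNF, IL-1 or Toll-like receptors activate the IκB kinase complex, IκB is degraded, and the dimers enter the nucleus and switch on inflammatory genes together with the genes of their own inhibitors. NFKBIA and TNFAIP3 are the best known of these feedback genes, and in myeloid cells the outputs include the cytokines TNF and IL-1β.

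The promoters are shown because all 10 genes are widely used as readouts of this factor, whose binding element can be looked for in the letters upstream of each start site. RefSeq start sites on GRCh38.p14 were held for 9 of the 10 genes, 13 promoters in all of 250 bases before to 50 bases after the start; RELB had no entry. The κB consensus, 10 letters long, was searched on both strands and matches that overlapped were joined. It was found in 8 of the 13 promoters, belonging to 6 genes, against 2075 of all 35116 promoters (5.91%). Counted by gene, which leaves out repeated start sites, it was 6 of 9 against 1937 of 27305 genes (7.09%). The genes are known readouts of NF-κB, so the higher share is no independent result and was not tested. The NFKBIA promoter, chr14:35404700-35404999 on the minus strand, and the TNFAIP3 promoter, chr6:137867009-137867308 on the plus strand, are printed whole 5′ to 3′, with κB matches in capitals.
NFKBIA: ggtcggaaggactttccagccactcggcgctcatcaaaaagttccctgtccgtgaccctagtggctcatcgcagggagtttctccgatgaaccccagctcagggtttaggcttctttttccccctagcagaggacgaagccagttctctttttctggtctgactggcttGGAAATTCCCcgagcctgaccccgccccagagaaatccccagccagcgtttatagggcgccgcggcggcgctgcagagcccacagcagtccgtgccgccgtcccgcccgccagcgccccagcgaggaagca
TNFAIP3: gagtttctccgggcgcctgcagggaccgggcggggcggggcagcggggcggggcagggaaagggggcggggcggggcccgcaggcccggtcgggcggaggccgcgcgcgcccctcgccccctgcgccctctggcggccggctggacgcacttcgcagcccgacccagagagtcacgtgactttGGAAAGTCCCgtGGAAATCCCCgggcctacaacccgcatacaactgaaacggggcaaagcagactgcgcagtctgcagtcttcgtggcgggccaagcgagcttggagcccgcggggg
The NFKBIA match began 81 bases before the start site, and the TNFAIP3 promoter held 2 matches, which began 67 and 55 bases before its start. Windows of 30 bases around matches of the other genes follow, 1 for each promoter shown, to let the cores be compared.
NFKB1 at chr4:102501300-102501329 (plus strand): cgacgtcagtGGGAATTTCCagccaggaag
NFKB2 at chr10:102394461-102394490 (plus strand): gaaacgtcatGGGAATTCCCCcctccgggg
NFKB2 at chr10:102395674-102395703 (plus strand): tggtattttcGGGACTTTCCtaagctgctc
NFKBIZ at chr3:101827757-101827786 (plus strand): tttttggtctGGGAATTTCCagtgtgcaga
BIRC3 at chr11:102317275-102317304 (plus strand): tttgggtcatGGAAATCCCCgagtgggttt
NFKB1 and NFKBIZ shared 1 core, letter for letter, as the capitals show. The promoters of ICAM1, TNF and IL1B held no match to the full consensus in this window. That of ICAM1 held ggaaattccg, which differs from the NFKBIA match in the last letter alone. A match, or the lack of one, describes the sequence and was not tied to binding in these cells.

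**Figure D1:**
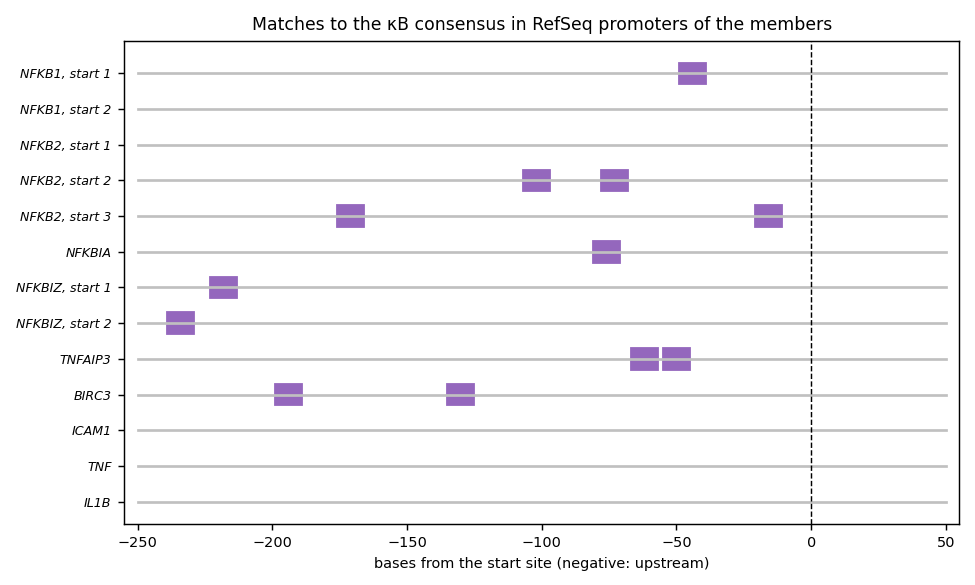
Position of κB consensus matches in the 13 RefSeq promoters of 9 genes, drawn as distance in bases from the start site (dashed line); grey lines span 250 bases before to 50 after the start and purple boxes mark the first 10 bases of each match, with overlapping matches joined. Boxes appear in 8 of the 13 promoters, and none in those of ICAM1, TNF and IL1B.

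Library totals ran from 3143129 to 43571060 counts, and 3 counts corresponded to between 0.067 and 0.872 CPM, a count scaled to the library total with TMM factors and not divided by gene length. The shallowest libraries were K562 DMSO 2, with 3143129 counts, and K562 DMSO 4, with 4383241. One transcript, LOC100507412, took 4.11% to 24.3% of the counts in MOLM13 and 0.269% to 6.44% in K562. All 10 MOLM13 markers, among them FLT3 and CSF1R, were counted in MOLM13, with a summed level of 978 to 1630 CPM there and 148 to 297 CPM in K562, where HOXA9 was at 0. The 10 erythroid markers summed to 1530 to 2920 CPM in K562 and 6.35 to 9.69 CPM in MOLM13, and HBE1 was at 0 in every library. Markers of lymphoid and stromal cells summed to 32.6 to 115 CPM in MOLM13 and 90.7 to 154 CPM in K562. In bulk RNA, fewer cells of a type and less RNA per cell cannot be told apart.

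NFKB1, RELB, NFKBIA, TNFAIP3 and TNF were higher in MOLM13 than in K562, while NFKB2, NFKBIZ and ICAM1 did not pass edgeR's test and NFKBIZ passed DESeq2's. With Ro none of the 10 genes passed the adjusted threshold in either line when all 4 pairs were used. The MOLM13 DMSO libraries themselves differed, and pair 4 was the highest of them for most of these genes.

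NFKB1 encodes p105, the precursor of the p50 subunit. In DMSO it stood at 34.7, 45.9, 43.1 and 49.6 CPM in MOLM13 pairs 1 to 4, and at 16.2, 16.6, 16.2 and 15.8 CPM in K562. No MOLM13 value overlapped a K562 value, and the K562 libraries were close together, at 16.2 ± 0.327 CPM (SD, n = 4). The log2 difference was 1.43 (SE 0.19), with an adjusted p of 4.6e-05 (edgeR, quasi-likelihood test, Benjamini-Hochberg). With Ro, NFKB1 read 32.0, 44.7, 45.6 and 46.7 CPM in MOLM13 and 17.5, 16.7, 20.8 and 22.9 CPM in K562. It was lower with Ro in 3 of 4 MOLM13 pairs by small amounts and higher in all 4 K562 pairs.

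NFKB2 encodes p100, the precursor of p52 in the non-canonical arm. Its DMSO levels were 1.44, 1.37, 1.39 and 4.90 CPM in MOLM13, against 3.49, 2.43, 2.34 and 4.45 CPM with Ro. Pairs 1 to 3 were alike in DMSO and all higher with Ro, whereas pair 4 began high and hardly moved. In K562, NFKB2 read 1.39, 1.74, 1.80 and 3.15 CPM with DMSO and 1.14, 1.47, 1.38 and 1.41 CPM with Ro, lower in every pair. The lines overlapped in DMSO and differed by 0.34 on the log2 scale (SE 0.47, edgeR adjusted p = 0.601, Benjamini-Hochberg). That difference turned to -0.42 without MOLM13 DMSO library 4.

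RELB encodes the subunit that partners with p52. It read 14.9, 19.2, 29.2 and 65.2 CPM in the MOLM13 DMSO libraries and 20.1, 25.2, 32.2 and 54.0 CPM with Ro. In K562 it read 4.22, 2.03, 6.21 and 12.8 CPM with DMSO and 4.93, 4.08, 5.60 and 9.01 CPM with Ro. Pair 4 was the highest of its group in both lines, and the lowest MOLM13 DMSO library still exceeded the highest of K562. The log2 difference in DMSO was 2.37 (SE 0.52, edgeR adjusted p = 0.0024, Benjamini-Hochberg).

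NFKBIA encodes IκBα, the inhibitor that holds NF-κB in the cytoplasm. It read 53.9, 55.9, 64.9 and 102 CPM in the MOLM13 DMSO libraries, and 42.8, 38.1, 40.0 and 26.1 CPM in those of K562. The lines did not overlap and differed by 0.92 on the log2 scale (SE 0.25, edgeR adjusted p = 0.0101, Benjamini-Hochberg). This call was lost when counts were scaled by library total alone, at 0.53 and an adjusted p of 0.0932 (edgeR). With Ro the values were 53.0, 60.5, 59.7 and 82.1 CPM in MOLM13 and 52.8, 30.9, 39.0 and 41.9 CPM in K562. The Ro and DMSO libraries overlapped in both lines, and the pairs did not move one way in either.

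TNFAIP3 encodes A20, a ubiquitin-editing enzyme that shuts off signalling to the IκB kinases. In DMSO it stood at 20.8, 47.4, 49.9 and 92.0 CPM in MOLM13, and at 7.13, 9.30, 8.41 and 6.31 CPM in K562. Every MOLM13 library lay above every K562 library, with a log2 difference of 2.78 (SE 0.38, edgeR adjusted p = 4.5e-05, Benjamini-Hochberg). With Ro it read 20.8, 44.4, 58.1 and 56.5 CPM in MOLM13 and 6.29, 9.07, 9.13 and 12.1 CPM in K562. The pairs changed in different directions within each line.

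NFKBIZ encodes IκBζ, a nuclear IκB protein that helps to activate secondary inflammatory genes. Its counts were low, at 4.48, 2.97, 3.47 and 2.12 CPM with DMSO and 4.28, 3.99, 3.30 and 2.25 CPM with Ro in MOLM13. In K562 it read 1.74, 0.872, 1.84 and 2.45 CPM with DMSO and 1.74, 1.64, 2.35 and 2.29 CPM with Ro. Unlike most of the genes it was lowest in MOLM13 pair 4. The lines overlapped in DMSO and differed by 0.83 (SE 0.32, edgeR adjusted p = 0.0556, Benjamini-Hochberg). The difference passed with all 8 libraries by DESeq2 (0.84, adjusted p = 0.0364, Benjamini-Hochberg), and by edgeR without MOLM13 DMSO library 4 (1.00, adjusted p = 0.0183, edgeR) and without K562 DMSO library 4 (0.95, adjusted p = 0.0351, edgeR).

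BIRC3 encodes cIAP2, a ubiquitin ligase at TNF receptors. It was close to the limit of counting, with 2, 7, 11 and 26 counts in MOLM13 DMSO and 4, 10, 13 and 15 with Ro. K562 held 23, 0, 6 and 2 counts with DMSO and 4, 3, 12 and 23 with Ro. In CPM, BIRC3 was higher with Ro in all 4 MOLM13 pairs, but each pair's 95% counting interval included no change. It fell below the count minimum in K562, and it did not pass there with Ro when the minimum was dropped. Summed over the libraries of a group, MOLM13 DMSO held 1.38 times the K562 level, with a 95% counting interval of 0.859 to 2.26.

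ICAM1 encodes the adhesion molecule that binds leukocyte integrins. It read 9.53, 10.8, 11.5 and 18.2 CPM with DMSO and 12.2, 14.3, 12.5 and 17.2 CPM with Ro in MOLM13. In K562 it read 10.5, 9.88, 14.8 and 21.2 CPM with DMSO and 9.86, 11.0, 12.8 and 12.8 CPM with Ro. The groups overlapped throughout, and the lines differed in DMSO by -0.15 (SE 0.29, 95% interval -0.79 to 0.48, edgeR adjusted p = 0.714, Benjamini-Hochberg). Without K562 DMSO library 4 the estimate was 0.09.

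TNF encodes the cytokine that is both a target and an inducer of NF-κB. It read 11.7, 19.8, 27.2 and 70.7 CPM in MOLM13 DMSO, from 81, 446, 549 and 2467 counts. With Ro it read 16.8, 32.8, 36.1 and 53.8 CPM. Ro was higher in pairs 1 to 3 and lower in pair 4, the pair with the most TNF. K562 was close to 0, with 0, 0, 2 and 0 counts in the DMSO libraries and 0, 1, 0 and 7 with Ro. The summed MOLM13 DMSO level was 1650 times that of K562, with a 95% counting interval of 457 to 13600. The edgeR fit gave a log2 difference of 10.0 (adjusted p = 9.3e-07, Benjamini-Hochberg), a value that depends on the prior count and the 2 K562 counts. It was 9.44 with the block, 8.98 without K562 DMSO library 1 and 12.34 without library 3, which held both counts.

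IL1B encodes the precursor of IL-1β. MOLM13 held 7, 17, 24 and 13 counts with DMSO, or 1.01, 0.753, 1.19 and 0.372 CPM, and 14, 21, 45 and 13 counts with Ro, or 1.22, 1.42, 2.06 and 0.651 CPM. Levels were higher with Ro in all 4 pairs, and the 95% counting interval of the change lay above 0 only in pair 3. K562 held 8, 4, 3 and 0 counts with DMSO and 1, 3, 2 and 5 with Ro, below the count minimum. Its highest K562 level, 1.16 CPM in DMSO library 2, rested on 4 counts in the shallowest library.

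**Figure D2:**
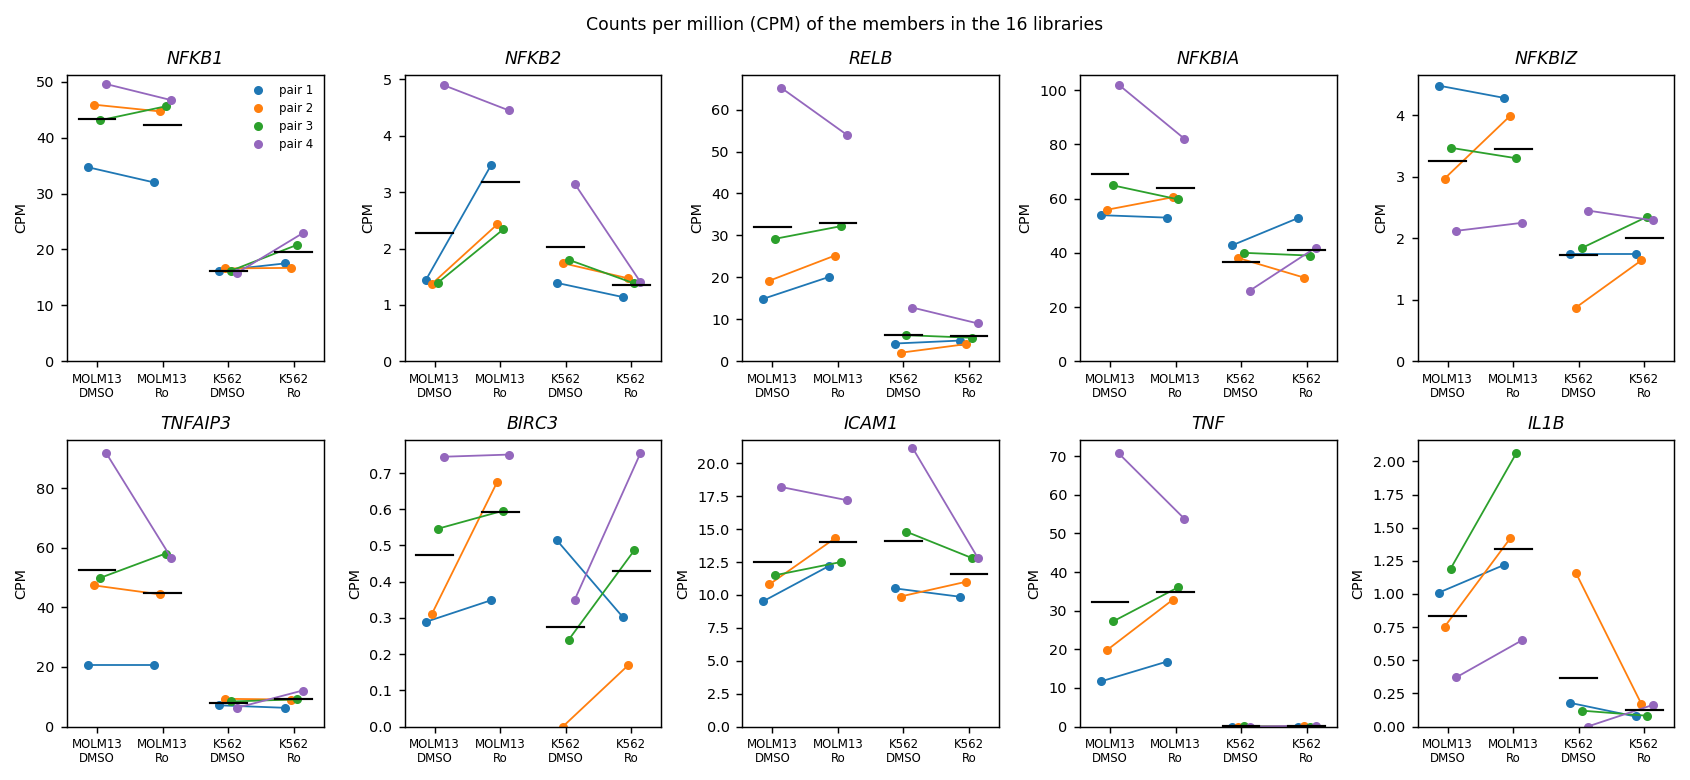
Level (CPM) of each gene in the 16 libraries, on linear axes from 0 with a scale for each gene; lines join the DMSO and Ro library of a pair and black bars are the mean of 4 libraries. NFKB1, RELB, NFKBIA, TNFAIP3 and TNF are higher in every MOLM13 DMSO library than in every K562 DMSO library, and MOLM13 pair 4 is the highest DMSO library for 8 of the 10 genes.

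Of the 8 genes with enough counts to test between the lines in DMSO, 5 passed and all 5 were higher in MOLM13. Over all genes, 41.3% passed in either direction, 21.1% were higher in MOLM13, and for 20.5% every MOLM13 library exceeded every K562 library, as was the case for these 5. The median log2 difference was 1.17 for the 8 genes and -0.0047 for all 15268 tested. TNF was tested only where both lines kept 4 libraries or a K562 library was left out, because it needed 10 counts in 4 libraries, so that 4 genes passed without MOLM13 DMSO library 1, 2 or 3. With no count minimum IL1B was also tested and passed, at 1.90 (SE 0.65, edgeR adjusted p = 0.0312). The split of all calls was 3215 higher to 3098 lower in MOLM13. Scaling by library totals moved the median of all genes by -0.41 and the split to 2023 higher and 5008 lower. Under that scaling NFKB2 stood at -0.10 and TNFAIP3 at 2.39, and 4 genes passed.

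**Figure D3:**
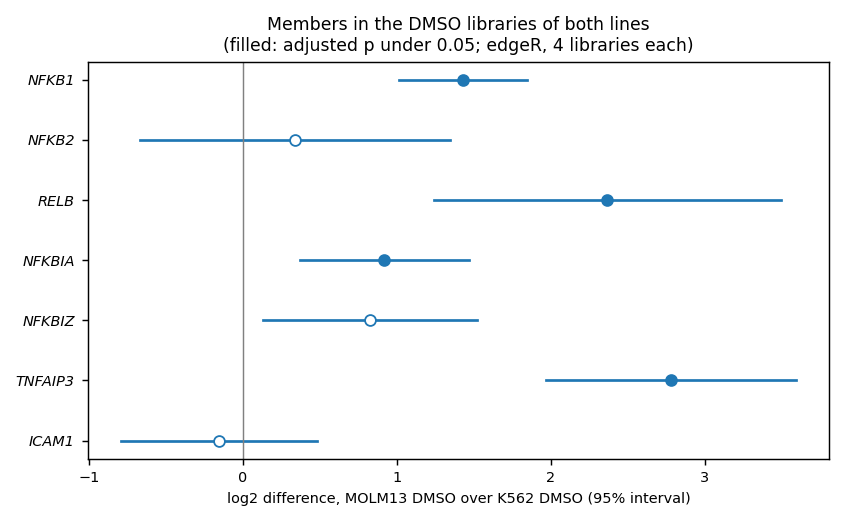
Log2 difference between MOLM13 and K562 in the DMSO libraries (horizontal axis, with 95% intervals from the edgeR fit, 4 libraries per line) for 7 genes; filled points have an adjusted p under 0.05. TNFAIP3 and RELB lie farthest to the right at 2.78 and 2.37, and NFKB2, NFKBIZ and ICAM1 are open points. TNF is left out because its fitted value rests on 2 counts in K562.

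The effect of Ro was asked within each line, without and then with a replicate block for the pair. Libraries of the same number deviated together, more weakly in K562 than in MOLM13. Without the block 0 of 10 genes passed in MOLM13, as for all genes (0% called), and 0 of the 10 had an unadjusted p under 0.05, against 1.16% of all genes. With the block 0 of 10 passed the adjusted threshold, against 2.11% of all genes, and DESeq2 also called 0 of 10 with and without it. IL1B, NFKB2 and TNF, 3 of the 10, had an unadjusted p under 0.05 with the block, against 17.2% of all genes. The median log2 change of the 10 genes was 0.13 without and 0.16 with the block, and that of all genes was 0.00043 and 0.0015.

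IL1B had the largest change of the 10 genes in MOLM13, 0.76 with the block (SE 0.28, edgeR adjusted p = 0.156, Benjamini-Hochberg). NFKB2 changed by 0.47 (SE 0.21, edgeR adjusted p = 0.255) and TNF by 0.27 (SE 0.13, edgeR adjusted p = 0.284). The others lay between -0.15 for TNFAIP3 and 0.32 for BIRC3, and NFKBIA stood at -0.08 (95% interval -0.24 to 0.08). IL1B and BIRC3 were the 2 genes higher in all 4 pairs, where 10.2% of all genes were higher and 14.9% lower in all 4, and none of the 10 was lower in all 4.

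The TNF call depended on pair 4. Without that pair, TNF rose by 0.57 with the block (SE 0.10, edgeR adjusted p = 0.0019, Benjamini-Hochberg), the single call among 9 genes tested, where 2.46% of all genes passed. NFKB2 then stood at 0.91 (SE 0.26, edgeR adjusted p = 0.0573) and RELB at 0.32 (SE 0.10, edgeR adjusted p = 0.0931). In pair 4 itself the log2 changes were -0.39 for TNF, -0.13 for NFKB2, -0.27 for RELB and -0.70 for TNFAIP3. Leaving out pair 1, 2 or 3 instead left TNF between 0.10 and 0.22, short of the threshold.

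**Figure D4:**
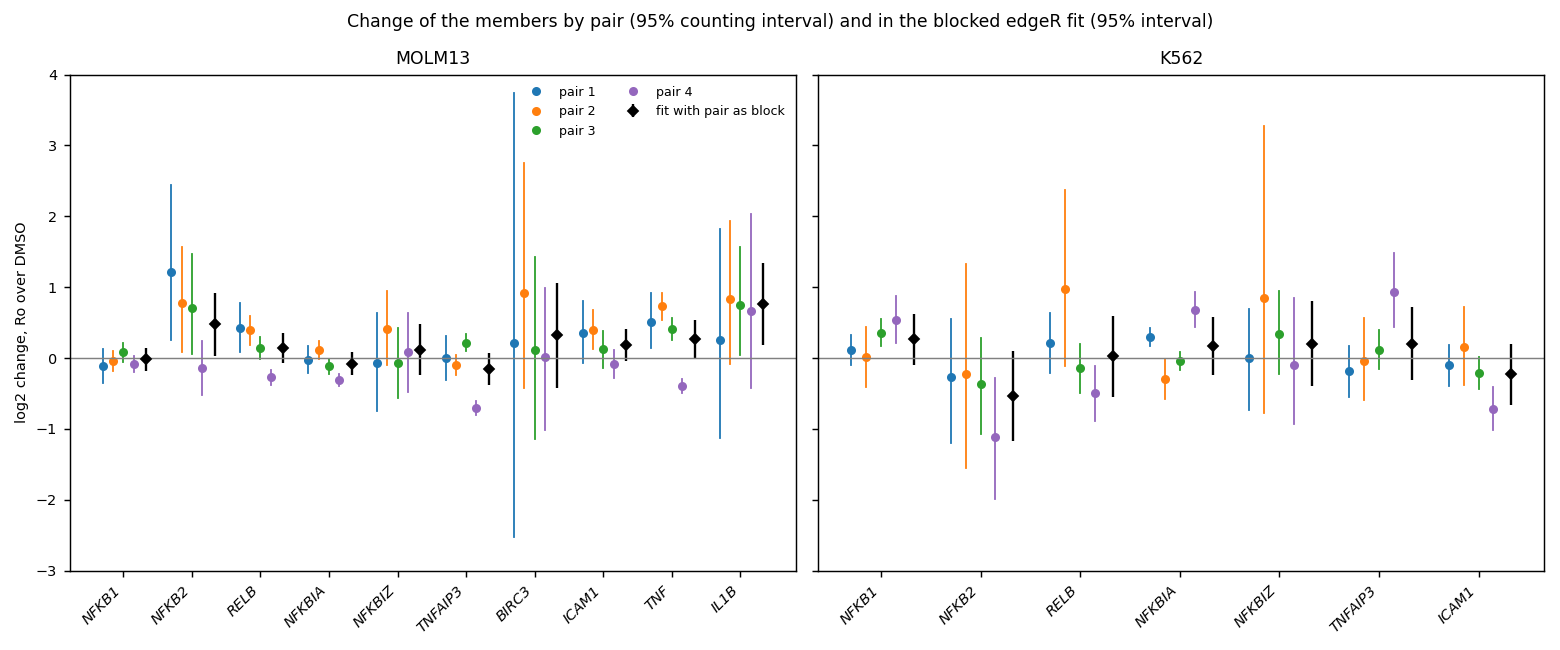
Log2 change from DMSO to Ro of each gene by pair (colored points with 95% counting intervals) and in the edgeR fit with the pair as a block (black diamonds with 95% intervals), in MOLM13 (10 genes) and K562 (7 genes tested). In MOLM13 the pair 4 point lies below the other pairs for NFKB2, RELB, NFKBIA, TNFAIP3, BIRC3, ICAM1 and TNF, and IL1B is the highest diamond at 0.76.

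The DMSO libraries of MOLM13 already differed by pair. In DMSO library 4, TNF was 1.93 log2 units above the mean of libraries 1 to 3, NFKB2 1.73, RELB 1.68 and TNFAIP3 1.32, and BIRC3, NFKBIA and ICAM1 were higher by 0.78 to 0.85. NFKB1 was higher by 0.28, while NFKBIZ and IL1B were lower, at -0.73 and -1.18. The median over all genes tested was -0.0075. The Ro library of pair 4 was displaced the same way for all 10 genes, by 0.99 for TNF and -1.12 for IL1B. Library 4 was also the most deeply counted MOLM13 DMSO library, at 39978791 counts, and the part of depth in this offset was not tested. LOC100507412 took 22.3%, 14.6%, 12.0% and 4.11% of the counts in MOLM13 DMSO libraries 1 to 4. In the Ro libraries it took 24.3%, 15.3%, 9.16% and 6.29%, and its part in the offset was not tested either.

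**Figure D5:**
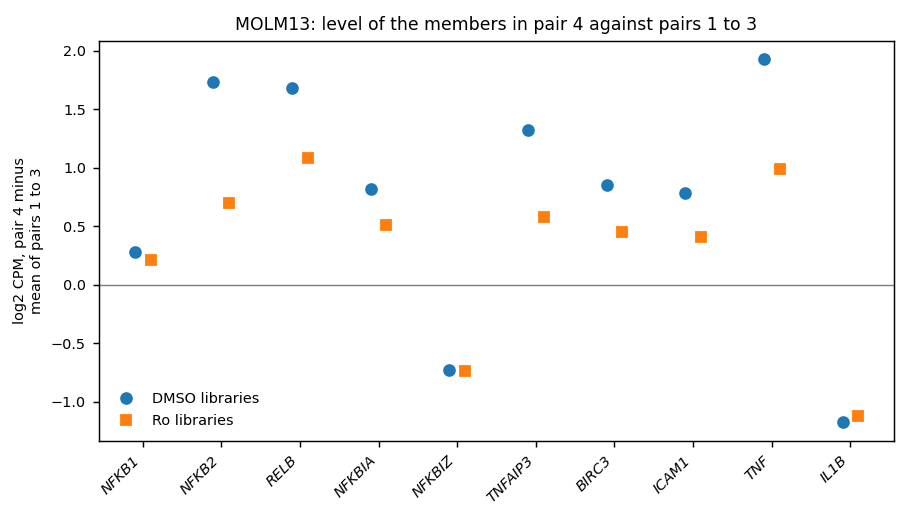
Level of each gene in MOLM13 pair 4 minus the mean of pairs 1 to 3, in log2 CPM, for the DMSO libraries (circles) and the Ro libraries (squares). Of the 10 genes, 8 lie above 0 in both, from 0.28 for NFKB1 to 1.93 for TNF in DMSO, and NFKBIZ and IL1B lie below 0 in both.

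In K562, 7 of the 10 genes had enough counts to be tested, and Ro changed 0 of them past the adjusted threshold with or without the block, as for all genes (0% in both fits, edgeR). At an unadjusted p under 0.05 there were 0 of 7 in both fits, against 1.23% of all genes without and 2.11% with the block, and DESeq2 called 0 of 7 as well. The blocked log2 changes ran from -0.53 for NFKB2 (SE 0.28, 95% interval -1.17 to 0.11) to 0.26 for NFKB1 (SE 0.16, 95% interval -0.10 to 0.62). NFKB1 was higher with Ro in all 4 pairs, where 6.84% of all genes were, and NFKB2 was lower in all 4, where 4.65% were. The K562 interval for NFKB2 did not reach the 0.47 estimated in MOLM13, whereas the intervals of the other 6 genes included the MOLM13 estimates. The MOLM13 estimate for NFKB2 had a 95% interval of its own, 0.03 to 0.92, which overlapped that of K562.

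Whether the Ro change differed between the lines was tested by the interaction of line and treatment. Of the 10 genes 0 passed without or with the block, as for all genes (0% in both fits, edgeR), and at an unadjusted p under 0.05 there were 0 of 10 without the block, against 1.34% of all genes. With the block NFKB2 (1.07 higher in MOLM13, SE 0.37, edgeR adjusted p = 0.766) and IL1B (1.83, SE 0.77, edgeR adjusted p = 0.766) had an unadjusted p under 0.05, against 6.01% of all genes. The IL1B value rested on 15 counts with DMSO and 11 with Ro in K562, summed over 4 libraries each.

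Around these genes, 84 of 85 other listed NF-κB pathway genes were in the table, chosen by role, and 63 were tested in each line. With the block, 1 rose and 1 fell with Ro in MOLM13, where 2.11% of all genes passed in that fit. In K562 0 passed with the block, as for all genes (0%). The unadjusted p there was under 0.05 for 1 higher and 1 lower gene, against 2.11% of all genes. TNFAIP2, a TNF-induced gene of myeloid and endothelial cells, read 18.9, 28.2, 36.6 and 32.4 CPM with DMSO and 35.2, 36.7, 46.2 and 42.3 CPM with Ro in MOLM13. It rose in all 4 pairs, by 0.48 (SE 0.09, edgeR adjusted p = 0.0048 with the block and 0.9999 without it), and by 0.38 to 0.53 when any 1 pair was left out, each past the threshold. TNFAIP8, an anti-apoptotic gene induced by TNF, read 40.9, 67.9, 54.2 and 57.5 CPM with DMSO and 42.1, 48.8, 41.4 and 31.3 CPM with Ro. It fell by 0.43 (SE 0.10, edgeR adjusted p = 0.0252 with the block and 0.9999 without it), lower in 3 of 4 pairs. This call was lost without pair 2 (edgeR adjusted p = 0.104), pair 3 (0.161) or pair 4 (0.0974). TNFAIP2 was higher in all 4 K562 pairs too, at 0.31 (SE 0.14, edgeR adjusted p = 0.947 with the block).

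Among the other 6 subunits and IκB proteins, 0 of 6 passed with Ro in either line. With the block, 2.11% of all genes passed in MOLM13 and 0% in K562. NFKBID, a nuclear IκB protein, was at 0.28 in MOLM13 and -0.70 in K562 in the blocked fits, RELA was at -0.06 in MOLM13, and REL was at 0.34 in K562. Between the lines 2 of the 6 passed, where 41.3% of all genes passed and 21.1% were higher in MOLM13. Both were higher in MOLM13, BCL3 by 1.72 and NFKBID by 1.58 on the log2 scale.

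Of the receptors, adaptors and kinases upstream, 0 of 25 passed with Ro in MOLM13 and 0 of 24 in K562. The blocked fits called 2.11% of all genes in MOLM13 and 0% in K562. TAB2 and TRAF6, which link receptors to the kinase TAK1, had the smallest p in MOLM13, at 0.22 and 0.30 (edgeR adjusted p = 0.156 and 0.172 with the block). IRAK2, at 0.48, and MAP3K7, which encodes TAK1, at 0.29, had the smallest in K562. In DMSO 4 of 24 were higher and 8 lower in MOLM13, where 41.3% of all genes passed and 21.1% were higher. IL1RAP, the accessory chain of the IL-1 receptor, was higher by 3.86, whereas IL1R1, the receptor itself, was lower at -3.03, with 0.692 ± 0.327 CPM in MOLM13 and 5.99 ± 1.95 CPM in K562 (SD, n = 4).

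Of the feedback genes, 0 of 10 passed with Ro in MOLM13 and 0 of 9 in K562. Over all genes, 2.11% passed with the block in MOLM13 and 0% in K562. PELI1, a ubiquitin ligase of receptor complexes, was higher with Ro in all 4 MOLM13 pairs at 0.41 (SE 0.12, edgeR adjusted p = 0.0658 with the block), and TAX1BP1, an A20 adaptor, was at -0.12. In K562 TNIP3 was at -0.45 and TRAFD1 at 0.20. Between the lines 4 of 10 were higher in MOLM13 and 1 lower, where 41.3% of all genes passed and 21.1% were higher. IRAK3, the inhibitory IRAK of monocytes, stood at 131 ± 10.7 CPM in MOLM13 and 0.493 ± 0.393 CPM in K562 (SD, n = 4), and CYLD, a deubiquitinase, was higher by 1.54.

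Most of the 21 other cytokines and chemokines were too low to test. With Ro 0 of 5 passed in MOLM13 and 0 of 9 in K562, against 2.11% and 0% of all genes with the block. IL23A and CCL5 were lower with Ro in all 4 MOLM13 pairs, at -0.45 and -0.20 (edgeR adjusted p = 0.152 and 0.190 with the block). CXCL3, a neutrophil chemokine, was at 0.94 and CSF1 at 0.51 in K562 (edgeR adjusted p = 0.947 for both with the block). In DMSO 3 of 6 were higher in MOLM13 and 1 lower, where 41.3% of all genes passed and 21.1% were higher. LTB, which encodes lymphotoxin β, stood at 59.6 ± 29.2 CPM in MOLM13 and 0.518 ± 0.182 CPM in K562 (SD, n = 4), and CCL3 had 121 counts in MOLM13 and 0 in K562.

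Of the other target genes, 1 of 18 rose and 1 fell with Ro in MOLM13, the TNFAIP2 and TNFAIP8 above. These were calls with the block, where 2.11% of all genes passed. In K562 0 of 16 passed, as for all genes (0%), and XIAP, a caspase inhibitor, was at 0.28. In DMSO 7 of 17 were higher and 3 lower in MOLM13, where 41.3% of all genes passed and 21.1% were higher. PLEK, a gene of myeloid cells and platelets, stood at 62.4 ± 47.9 CPM in MOLM13 and 0.466 ± 0.182 CPM in K562. GADD45B, a stress gene, stood at 66.7 ± 21.1 CPM and 2.31 ± 0.813 CPM (SD, n = 4). Across all 62 listed genes tested between the lines, 20 were higher and 13 lower in MOLM13, where 41.3% of all genes passed and 21.1% were higher, and the median log2 difference was 0.26. With scaling by library totals the split was 16 higher to 20 lower and the median -0.15, where that of all genes was -0.41.

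NFKBIA was taken as the reference for genes of like pattern. Over the 8 MOLM13 libraries the log2 levels of AP5Z1 (Pearson r = 0.997), DGKQ (0.995) and RAD17 (0.995) followed it most closely among 15030 genes. Of the other 9 genes RELB was closest (0.943), followed by TNF (0.891), and NFKBIZ (-0.879) and IL1B (-0.731) ran the other way. These 8 points include both libraries of pair 4. Over the 8 K562 libraries ARL16 (0.989), NAA11 (0.986) and APPBP2 (0.98) followed NFKBIA most closely among 15226 genes, and NFKB2 (-0.819) ran the other way.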

How the data were processed

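Raw read counts per gene of 16 QuantSeq 3′ libraries were used as deposited. The authors trimmed and aligned reads to hg38 (the submitters' processing notes name Trim Galore, STAR 2.5.3a and SAMtools 1.5); the counting program and annotation are not given in the sources used here. The counts were tested with edgeR 4.0.16 (R 4.3.3), TMM scaling and the quasi-likelihood test for genes that reached 10 counts in 4 or more libraries, with Benjamini-Hochberg adjustment over all genes tested and a threshold of 0.05. Tests were run by line (treatment), between the DMSO libraries, and for the interaction over 16 libraries. The alternatives were a replicate block, DESeq2 1.42.0, DESeq2 size factors, library totals, no filter, a minimum of 50 counts, each library or pair left out, and 2 pairs alone. The edgeR fits with and without the block, and DESeq2 with it, were tested on simulated counts for each comparison. The simulated counts had the same added spread for every gene, so they do not show how the fits perform at the spread of these libraries.

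The labels number the pairs and do not say whether libraries came from separate cultures, so p-values measure the spread between these samples, which may be technical. Deviations from group means correlated at 0.384 to 0.831 between libraries of the same number in MOLM13 and 0.11 to 0.417 in K562. Between libraries of different numbers the values were -0.618 to 0.356 in MOLM13 and -0.262 to 0.187 in K562, where the ranges overlapped. Deviations within a group sum to 0, which pushes values between different numbers the opposite way from those of the same number. Part of this contrast is therefore built in. The numbers were taken to pair the samples in both lines. The biological coefficient of variation was 0.254 in MOLM13 and 0.247 in K562, and 0.0814 and 0.206 with the block.

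The 10 genes and the lists were chosen with earlier results of these data known. Named genes were the 10 genes, 2 per list with the smallest blocked p in each line, 2 per list with the largest called line difference, and the 3 most like NFKBIA in each line. Repeated symbols were resolved by Entrez ID. Counting intervals are exact at 95% and, like the level given by 3 counts, cover counting error only. Promoter sequences are from RefSeq (GRCh38.p14).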

Additional observations from a re-analysis of the deposited data

Results flagged for a closer look

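Within groups of 4 libraries, 4 of the 40 gene and group combinations had 1 library apart from the rest, its gap to the nearest library exceeding Dixon's 95% critical share of the group's range, and chance flags about 1 in 20 such groups. NFKB1 was lowest in MOLM13 Ro library 1, at 32.0 CPM against 44.7 for the nearest. NFKB2 was highest in MOLM13 DMSO library 4, at 4.90 CPM against 1.44. TNF was counted in a single K562 DMSO library, number 3, at 0.0801 CPM (2 counts). The rest of that group was at 0, so any count there would have been flagged, and the rate of 1 in 20 does not apply. IL1B was highest in K562 DMSO library 2, at 1.16 CPM against 0.179, from 4 counts.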

How the results depend on the processing

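Without the block edgeR called 0 genes with Ro in MOLM13. The count was 317 with the replicate block, 1 by DESeq2, 194 by DESeq2 with the block, 28 on pairs 1 and 2 alone, 96 on pairs 3 and 4 alone, and 0 to 358 when a library or pair was left out (0 to 1 of the 10 genes). In K562 the count went from 0 to 2 by DESeq2 with the block and 418 on pairs 1 and 3, and the interaction from 0 to 3 by DESeq2 with the block. Between the DMSO libraries, whose numbers did not pair the lines (mean correlation -0.0435), a replicate block gave 5738 calls. Among them were 5 of the 8 genes that were tested there out of the 10. The block changed no call of the 10 genes when all 4 pairs were used.

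Of the 203 alternative values of the 10 genes in MOLM13, 22 changed sign, as did 10 of 138 in K562, 3 of 107 between the lines and 18 of 228 for the interaction. No value that changed sign was past the threshold before or after. Apart from fits with a library or pair left out, those in MOLM13 were NFKB1 with library totals (0.038) and on pairs 3 and 4 (0.019), RELB on pairs 3 and 4 (-0.056) and NFKBIA on pairs 1 and 2 (0.067). Those in K562, with the same exception, were RELB with the block (0.023), with DESeq2 and the block (0.030) and on pairs 1 and 3 (0.0064), and TNFAIP3 on pairs 1 and 3 (-0.031). NFKB2 between the lines with library totals was -0.10, NFKBIZ in the interaction with library totals 0.020, and TNF in the interaction with the block 0.071.

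With a library or pair left out, the MOLM13 log2 changes ran from -0.11 to 0.077 for NFKB1, -0.30 to 0.64 for RELB, -0.24 to 0.14 for NFKBIA, -0.044 to 0.31 for NFKBIZ, -0.47 to 0.19 for TNFAIP3 and -0.17 to 0.83 for TNF. In K562 they ran from -0.38 to 0.39 for RELB, -0.0017 to 0.30 for NFKBIA and -0.025 to 0.37 for TNFAIP3. Between the lines NFKB2 ran from -0.42 to 0.60 and ICAM1 from -0.39 to 0.094. In the interaction RELB ran from -0.38 to 0.71, NFKBIZ from -0.24 to 0.10, BIRC3 from -0.72 to 0.35 and TNF from -3.82 to 0.49. The cause of these shifts was not tested. Counts were low for BIRC3 and IL1B in both lines and for TNF in K562. NFKB2 and NFKBIZ held 6 and 3 counts in K562 DMSO library 2. RELB and TNFAIP3 in MOLM13, whose values also shifted, were counted more deeply. The part of low counts in the shifts was not tested.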
